A study of Mus musculus with 9 samples.

Results

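The 10 genes described here make or specify the extracellular matrix (ECM) of growth plate cartilage, and they were taken by name, Col2a1, Acan, Col9a1, Col9a2, Col9a3, Col10a1, Matn1, Matn3, Comp and Sox9, out of 39179 genes listed in each library. RNA was sequenced from single capillaries with the cells around them, cut by laser microdissection (LMD) from the ossification front (OF), the zone of new bone and vessels directly beneath the growth plate of the femur. There were 5 libraries from juvenile mice aged 4 weeks and 4 from adult mice aged 12 weeks. All mice carried the Tg(TIE2GFP)287Sato/J reporter on a C57BL/6 origin, in which the Tie2 promoter makes endothelial cells fluoresce, and no group was treated. Each library pooled many cut pieces, so a library is a mixture of cell types and not a sort of endothelial cells. The ages are compared here for RNA of cartilage genes in the cuts, library by library.

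Chondrocytes of the growth plate are laid out in zones. Sox9, the transcription factor that chondrocytes need, drives the cartilage programme in resting and dividing cells. Those cells secrete fibrils of type II collagen (the product of Col2a1), coated with type IX collagen (3 chains, from Col9a1, Col9a2 and Col9a3) and embedded in aggrecan (Acan), a proteoglycan that holds water. The matrilins (Matn1 and Matn3) and cartilage oligomeric matrix protein (Comp) link fibrils to other matrix molecules. Once chondrocytes enlarge next to the bone they switch to type X collagen (Col10a1), the marker of hypertrophic cartilage, and it is this edge that capillaries of the OF invade.

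The genes lie on separate chromosomes except for Col9a2 and Matn1, which share chromosome 4. On GRCm38 Col2a1 (ENSMUSG00000022483) is at chr15:97975602-98004695 on the minus strand and Col10a1 (ENSMUSG00000039462) at chr10:34389981-34397085 on the plus strand. Comp (ENSMUSG00000031849) is at chr8:70373558-70382066 and Sox9 (ENSMUSG00000000567) at chr11:112782224-112787760, both on the plus strand. The promoters shown are of Col10a1, made by hypertrophic cartilage, and, for contrast, of Col9a1, Matn1 and Matn3, made by the cells that come before it, while those of Acan and Col9a2 are not shown. Of the 10 genes 6 had entries in the RefSeq promoter table of GRCm38.p6, and each sequence holds the 250 bases before the start on the plus strand. Capitals mark TATAAA, a SOX-type match (ACAAAG or ACAATG or TCAAAG or TCAATG) or a RUNX-type match (TGTGGT), each searched on both strands.
Col10a1: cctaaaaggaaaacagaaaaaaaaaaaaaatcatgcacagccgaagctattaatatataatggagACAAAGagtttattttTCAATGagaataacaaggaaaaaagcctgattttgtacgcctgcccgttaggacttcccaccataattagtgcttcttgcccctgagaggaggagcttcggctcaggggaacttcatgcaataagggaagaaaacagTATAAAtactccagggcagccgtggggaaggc
Col9a1: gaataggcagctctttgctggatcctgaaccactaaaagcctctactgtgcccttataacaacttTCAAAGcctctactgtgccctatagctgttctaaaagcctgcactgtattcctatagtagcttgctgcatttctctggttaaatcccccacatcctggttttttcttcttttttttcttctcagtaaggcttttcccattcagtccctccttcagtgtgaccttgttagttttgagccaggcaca
Matn1: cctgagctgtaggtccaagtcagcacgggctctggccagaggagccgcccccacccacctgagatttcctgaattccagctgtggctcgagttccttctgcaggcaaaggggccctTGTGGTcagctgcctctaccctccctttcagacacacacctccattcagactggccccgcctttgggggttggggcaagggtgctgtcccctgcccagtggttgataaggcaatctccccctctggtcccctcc
Matn3: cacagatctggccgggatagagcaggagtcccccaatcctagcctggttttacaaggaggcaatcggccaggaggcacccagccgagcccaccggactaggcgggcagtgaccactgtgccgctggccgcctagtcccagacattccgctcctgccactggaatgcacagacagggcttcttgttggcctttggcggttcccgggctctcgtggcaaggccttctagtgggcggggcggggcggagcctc
The Col10a1 window, at chr10:34389731-34389980, held TATAAA 32 bases before the start and SOX-type matches 185 and 169 bases before it. Col9a1 has 2 starts in the table. The window of the first, shown here and at chr1:24177360-24177609, held 1 SOX-type match 185 bases before the start, and that of the second, at chr1:24194953-24195202, held none of the letters searched. The Matn1 window, at chr4:130944135-130944384, held 1 RUNX-type match 134 bases before the start, and the Matn3 window, at chr12:8947679-8947928, held none of these letters. Among all 32851 windows of this length, 12.4% held TATAAA, 39.4% a SOX-type match and 14.0% a RUNX-type match, so these matches are a description of common letters and not of bound sites.

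Library totals ranged from 4856833 to 8077362 counts, and a floor of 3 counts was 0.371 to 0.618 CPM, the count scaled to a common library total. Endothelial markers were counted in all libraries, with a summed normalised count of 2906 to 4638 in juveniles and 3364 to 3973 in adults. To give a normalised count, each count was divided by the TMM-scaled size of its library, with the 9 sizes set to a geometric mean of 1. The 6 osteoblast markers, of which Col1a1 made up most, summed to 569190 to 722909 in juveniles and to 211951 to 319635 in adults. Col1a1, Ibsp and Sp7 rose in juveniles, while Bglap, the osteocalcin gene of mature osteoblasts, rose in adults, from 9335 ± 3576 (SD, n = 5) to 38366 ± 24093 (SD, n = 4; log2 fold change −2.04, SE 0.40, edgeR adjusted p = 0.0151). All 6 neutrophil and all 5 erythroid markers rose in adults by edgeR's test. The labels do not say that the libraries of an age came from separate mice. The paper speaks of different mice for the juvenile cells, without naming the mouse of each library. Here p-values measure only the spread between these libraries.

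Counts on the cartilage genes were a small share of every library, and 1 adult library held far more than the others. The 10 genes together took 0.0519%, 0.0466%, 0.0990%, 0.0336% and 0.0352% of the counts of juveniles 1 to 5, and 0.113%, 0.515%, 0.0621% and 0.0821% of those of adults 1 to 4. Adult 2 stood far above the other 8 libraries. Its share rested on 30010 counts (exact 95% binomial interval 0.510% to 0.521%), while the lowest library, juvenile 4, had 1963 counts (0.0321% to 0.0351%). These intervals cover counting error only. The mean was 0.0533% ± 0.0267 (SD, n = 5) in juveniles and 0.193% ± 0.216 (SD, n = 4) in adults, and the adult mean was 0.0856% ± 0.0254 (SD, n = 3) without adult 2. The adult range without adult 2 overlapped the juvenile range, in which juvenile 3 was the highest. On the log2 scale the mean share was 1.42 higher in adults. Without Col2a1 this difference was −0.557, with shares of 0.0205% to 0.0752% in juveniles and 0.0197%, 0.195%, 0.00171% and 0.0236% in adults 1 to 4. Col10a1 is still part of those shares. Without it too, the other 8 genes took 0.00557% ± 0.00384 (SD, n = 5) in juveniles. In adults they took 0.0367% ± 0.0571 (SD, n = 4), or 0.00829% ± 0.00658 (SD, n = 3) without adult 2. Their ranges overlapped, with adult 3 at 0.00149% and juveniles at 0.00127% to 0.0107%. Fewer chondrocytes in a cut and less RNA in each of them cannot be told apart in such mixtures.

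**Figure D1:**
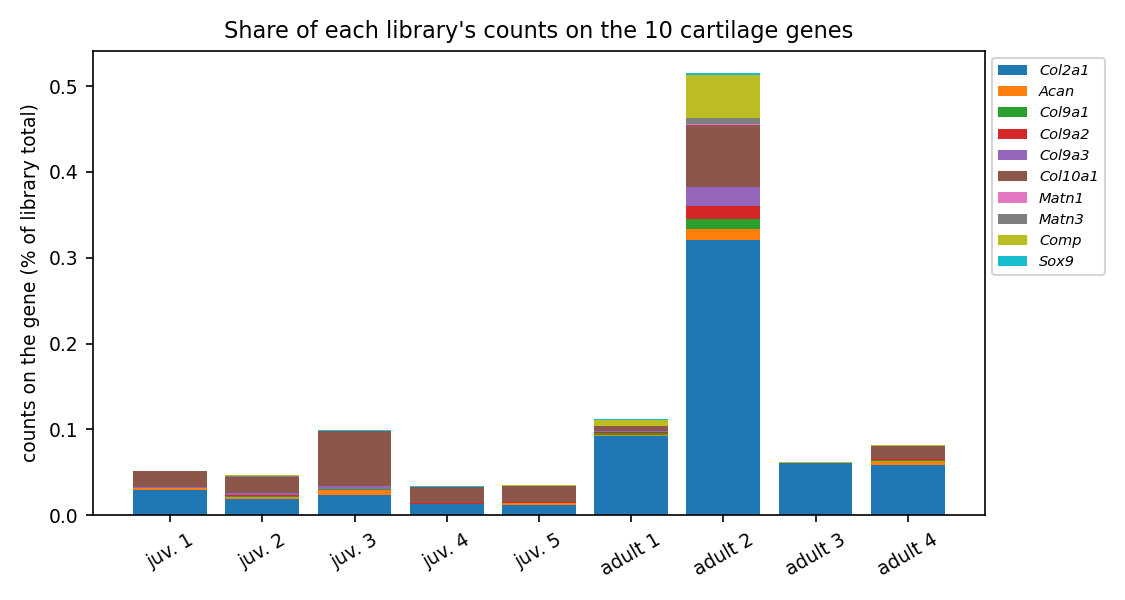
Bars give the counts on each of the 10 cartilage genes as a percent of the library's total, stacked by gene, for juveniles 1 to 5 and adults 1 to 4. Adult 2 reaches 0.515% and the other 8 libraries stay between 0.0336% and 0.113%. Col2a1 makes up most of each adult bar and of the bar of juvenile 1, and Col10a1 most of the bars of juveniles 3, 4 and 5.

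The split of the counts among the 10 genes differed between the ages. Col2a1 took 24.0% to 57.1% of the counts on the 10 genes in juveniles and 62.2% to 97.2% in adults. Col10a1 took 36.3% to 65.2% in juveniles and 0.352% to 18.1% in adults, so neither gene's share of these counts overlapped between the ages. Both shares are parts of the same total and so are not separate results. Whether all counts on Col2a1 came from chondrocytes was not tested. The level of Col2a1 itself did not overlap between the ages, while that of Col10a1 did. All 10 genes had counts in adult 1 and adult 2, and 8 of them in adult 4. Juvenile 2 had counts for 9 of the genes and the other juveniles for 8 each. Adult 3 had counts for only 4, with 4697 on Col2a1, 106 on Comp, 17 on Col10a1 and 10 on Col9a2, and Acan, Col9a1, Col9a3, Matn1, Matn3 and Sox9 were listed at 0 there. Only Col2a1, Col9a2, Col10a1 and Comp were counted in all 9 libraries.

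**Figure D2:**
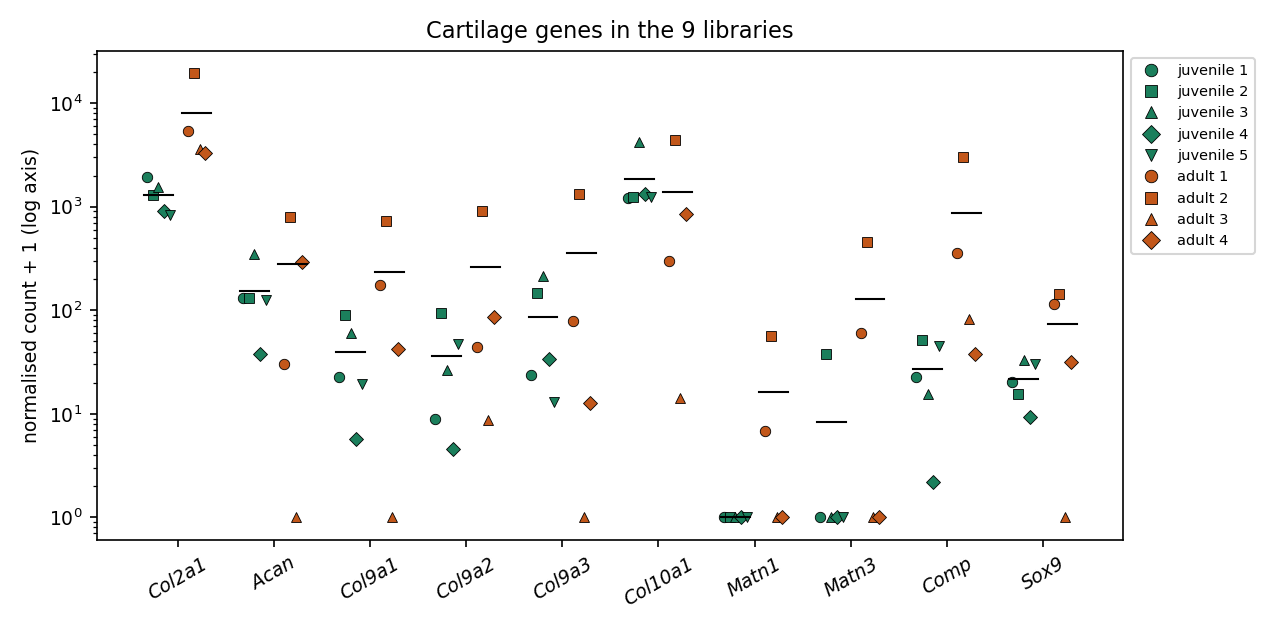
Points give the normalised count plus 1 of each gene in each library on a log axis, in green for juveniles and orange for adults, with a line at each age's mean. Adult 2 is the highest adult library for all 10 genes, and 6 of the genes lie at 0 in adult 3.

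Of the 10 genes, 8 passed edgeR's filter on low counts and 2 of these, Col2a1 and Comp, changed between the ages, both higher in adults and with none higher in juveniles. Over all 13418 genes tested 3.88% changed, 1.99% higher in juveniles and 1.89% higher in adults. The median log2 fold change, juvenile over adult, was −2.33 for the 8 tested genes and −0.01 for all genes tested, and it was −0.65 for the 8 without adult 2. The log2 fold change was negative for 7 of the 8, or for 5 without adult 2, against 50.5% of all genes. An unadjusted p under 0.05 was found for 3 of the 8, the third being Col9a2, and for 17.3% of all genes. Matn1 and Matn3 were too sparse for the filter. In all 10 genes the highest of the 9 libraries was adult 2. The share of all genes tested that were highest there was not counted, so this only describes the chosen genes.

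**Figure D3:**
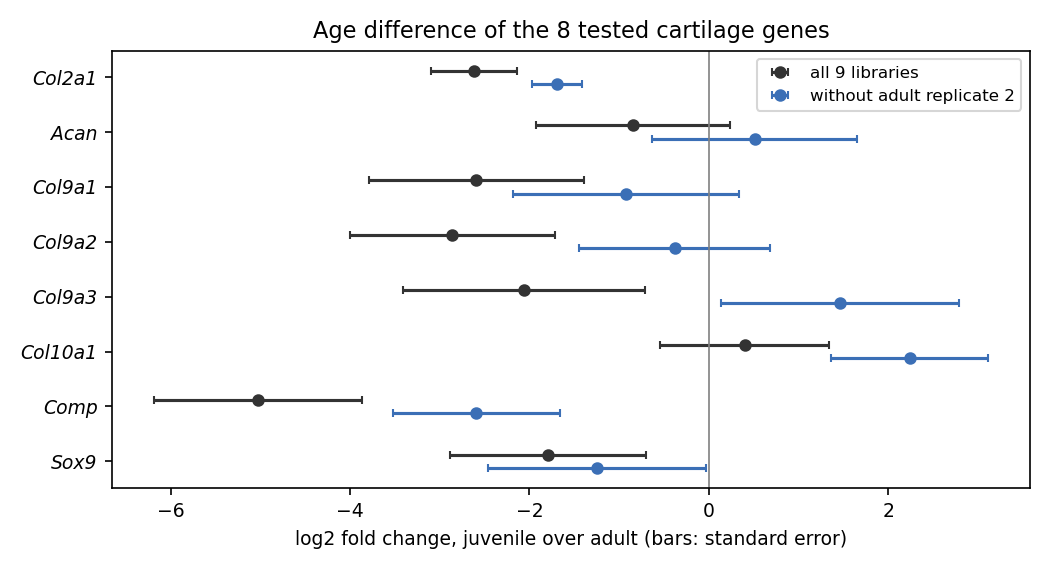
Points give the log2 fold change, juvenile over adult, of the 8 tested genes with bars of 1 standard error, from all 9 libraries in black and without adult 2 in blue. Col2a1 stays below 0 in both (−2.62 and −1.69), while Acan, Col9a3 and Col10a1 lie above 0 without adult 2.

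Col2a1, the main fibril collagen of cartilage, was higher in every adult library than in any juvenile one. Its normalised counts were 1925, 1305, 1543, 901 and 827 in juveniles 1 to 5 and 5440.4, 19566, 3647 and 3316 in adults 1 to 4. Among all genes tested, 4.08% had ranges that did not overlap with adults higher, and Col2a1 was the only one of the 10 cartilage genes to do so. Juveniles averaged 1300.3 ± 456 (SD, n = 5) and adults 7992.5 ± 7772 (SD, n = 4). The fitted level was 6.14-fold higher in adults (log2 fold change −2.62, SE 0.48, edgeR adjusted p = 0.0118). The exact two-sided permutation test over libraries gave p = 0.00794, the smallest that 5 libraries against 4 allow. Without adult 2 the difference was smaller and still passed the test (log2 fold change −1.69, edgeR adjusted p = 0.00602), with an adult mean of 4135 ± 1143 (SD, n = 3).

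The lowest Col2a1 levels were in juveniles 4 and 5, which also differed from the other 7 libraries in sex-linked RNA. They had 11 and 1 counts of Xist, transcribed from the inactive X, against 2965 to 6598 elsewhere, and 524 and 439 counts of the Y-linked Ddx3y, against at most 1. Without both of these libraries Col2a1 kept its direction and not its call (log2 fold change −2.33, edgeR adjusted p = 0.140). Under that setting 73 genes of the whole table were called. No adult library had such a pattern, so a comparison of the ages within it could not be made.

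Comp, a glycoprotein that binds collagens in cartilage and tendon, had the largest fold change of the tested cartilage genes, and its call was lost under many settings. Its normalised counts were 21.6, 50.6, 14.7, 1.18 and 43.9 in juveniles and 353, 3037, 82.3 and 37.0 in adults. Adults 1, 2 and 3 lay above all juveniles and adult 4 lay within their range. The fitted level was 32.7-fold higher in adults (log2 fold change −5.03, SE 1.16, edgeR adjusted p = 0.0317; exact permutation p = 0.0317). Without adult 2 it did not pass (log2 fold change −2.59, edgeR adjusted p = 0.145), nor without any 1 of the 5 juveniles (edgeR adjusted p = 0.0598 to 0.0846), without juveniles 4 and 5 together (−4.88, edgeR adjusted p = 0.201) or with limma voom (adjusted p = 0.274). Of the tendon markers, Scx, a transcription factor of tendon progenitors, was 237 to 299 in juveniles and 23.2 to 72.3 in adults (log2 fold change 2.42, SE 0.41, edgeR adjusted p = 0.00754). Tnmd had at most 4 counts in a library and Kera none, and the summed level of the 5 tendon and ligament markers was 291 to 389 in juveniles and 39.2 to 125.8 in adults. The part of such cells in the Comp result was not tested.

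Col10a1, of hypertrophic cartilage, was held within narrow limits in 4 of the 5 juveniles and varied widely in adults. Juveniles 1, 2, 4 and 5 had normalised counts of 1223, 1254, 1324 and 1241, and juvenile 3 had 4186. Adults 1 to 4 had 298, 4452, 13.2 and 843, so adult 2 was the highest library and adults 1, 3 and 4 were the lowest 3. Juveniles averaged 1846 ± 1309 (SD, n = 5) and adults 1401 ± 2062 (SD, n = 4), and their ranges overlapped (log2 fold change 0.40, SE 0.95, edgeR adjusted p = 0.898). Without adult 2 the log2 fold change was 2.24 and did not pass (edgeR adjusted p = 0.180). Exons of Col10a1 share 18 bases with Nt5dc1 on the opposite strand, and without a stated strand setting reads there cannot be told apart. Nt5dc1 had 75 to 297 counts, and its normalised count was also highest in juvenile 3 and adult 2, at 329.9 and 311.

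The ratio of Col10a1 to Col2a1 does not depend on how libraries are scaled to each other, and it separated the ages. Per kilobase of mRNA there was 1.04, 1.57, 4.42, 2.40 and 2.45 times as much Col10a1 as Col2a1 in juveniles 1 to 5, and 0.0894, 0.371, 0.00590 and 0.415 times in adults 1 to 4. The lowest juvenile ratio lay above the highest adult one. Col2a1, a part of this ratio, separated the ages by itself, and Col10a1 did not. How many other gene pairs do so was not counted. Adult 2, with the most counts on the 10 genes, kept an adult ratio, and juvenile 3, with the largest share among juveniles, had the highest ratio of all. The osteoblast collagen Col1a1 was 222 to 527 times as abundant per kilobase as Col2a1 in juveniles and 9.38 to 41.6 times in adults.

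**Figure D4:**
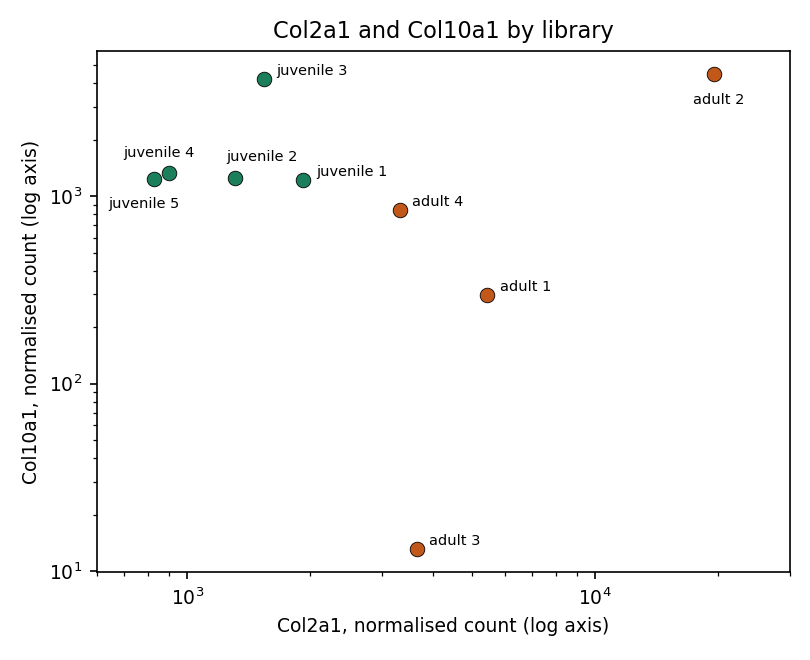
Each point is a library, with the normalised count of Col2a1 on the x axis and of Col10a1 on the y axis, both on log axes, green for juveniles and orange for adults. Juveniles 1, 2, 4 and 5 lie at a Col10a1 level of 1223 to 1324, adults lie further right, and adult 3 lies at a Col10a1 level of 13.2.

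Aggrecan did not separate the ages. Acan had normalised counts of 129.7, 129, 349, 36.5 and 125 in juveniles and 29.0, 787, 0 and 290.2 in adults. The highest and the lowest of the 9 libraries were both adults (log2 fold change −0.84, SE 1.08, edgeR adjusted p = 0.782). For each 1000 counts of Col2a1 there were 40.5 to 226 of Acan in juveniles and 5.33, 40.2, 0 and 87.5 in adults 1 to 4. So adult 1, with the second highest Col2a1, and adult 3 carried little aggrecan RNA beside it.

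The 3 chains of type IX collagen were highest in adult 2 and did not pass the test. Col9a1 had normalised counts of 4.71 to 89.5 in juveniles and 174, 724, 0 and 41.7 in adults (log2 fold change −2.59, SE 1.20, edgeR adjusted p = 0.291). Col9a2 had 3.53 to 93.1 in juveniles and 43.5, 901, 7.77 and 84.9 in adults (−2.86, SE 1.15, edgeR adjusted p = 0.205). Without adult 2 these log2 fold changes were −0.92 for Col9a1 and −0.38 for Col9a2. Only adult 2 exceeded all juveniles in Col9a2. Col9a3 had 12.0 to 212 in juveniles and 78.4, 1336, 0 and 11.8 in adults (−2.06, SE 1.35, edgeR adjusted p = 0.498), and its log2 fold change was 1.46 without adult 2. Adult 2 held 17.4, 20.7 and 113 times the median of the other adults for Col9a1, Col9a2 and Col9a3. Col9a3 shares 234 exon bases with Tcfl5 on the opposite strand, which had 143 counts in adult 2, 55 in adult 4, 14 in juvenile 2, 2 in juvenile 1 and 0 elsewhere.

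The matrilins were the sparsest of the cartilage genes. Matn1 had 53 counts in adult 2, 8 in adult 1 and 0 in the other 7 libraries. Matn3 had 432 counts in adult 2, 81 in adult 1, 41 in juvenile 2 and 0 elsewhere. No juvenile library had a Matn1 count, and a count of 0 allows up to 3 counts, or 0.405 to 0.618 CPM in these libraries. Exact permutation tests gave p = 0.167 for Matn1 and p = 0.286 for Matn3.

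Sox9, the regulator of the group, was low in all libraries. Its normalised counts were 19.3, 14.5, 32.1, 8.25 and 29.3 in juveniles and 114, 144, 0 and 30.7 in adults. Adults 1 and 2 lay above all juveniles, adult 4 within their range and adult 3 below it (log2 fold change −1.80, SE 1.09, edgeR adjusted p = 0.452). Adult 3 therefore combined a Col2a1 level above every juvenile with no count of Sox9.

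On a scale of normalised counts per kilobase of mRNA, the order of the levels also differed between the ages. In juveniles Col10a1 came first at 589.7 ± 418 (SD, n = 5), then Col2a1 at 255 ± 89.4, Col9a3 at 27.9 ± 29.2 and Acan at 20.9 ± 15.8. Col10a1 was above Col2a1 in all 5 juveniles, and both were far above the other 8. Col9a2 at 12.1 ± 12.5, Comp at 10.9 ± 8.51, Col9a1 at 10.1 ± 9.07 and Sox9 at 5.0 ± 2.41 followed, and from Col9a3 down neighbours lay within their spread. In adults Col2a1 came first at 1566 ± 1523 (SD, n = 4), ahead of Col10a1 at 448 ± 659 and Comp at 363 ± 599. Col9a3 at 117 ± 215, Col9a2 at 88.7 ± 147, Col9a1 at 61.3 ± 87.3, Matn3 at 42.4 ± 72.5 and Acan at 37.6 ± 49.6 came next, none of them apart from its neighbour by more than its spread. Col2a1 was above Col10a1 in all 4 adults.

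Other cartilage genes did not share a single pattern over the libraries. Of 16 further matrix genes 8 were tested, 2 rose in juveniles and none in adults, with a median log2 fold change of −0.28. The 2 were Col11a1 and Col11a2, chains of type XI collagen, the core of the type II fibril. Col11a1 was 13510 ± 2301 (SD, n = 5) in juveniles and 7624 ± 1960 (SD, n = 4) in adults (log2 fold change 0.83, SE 0.20, edgeR adjusted p = 0.0371). Col11a2 was 16039 ± 3835 and 9236 ± 447 (0.80, SE 0.18, edgeR adjusted p = 0.0263). These 2 genes thus went the opposite way to Col2a1, as did Col1a1, Ibsp and Sp7 of the osteoblast markers, while Bglap went the same way as Col2a1. In adult 3, which had no count of Acan or Sox9, Col11a1 was 9522 and Col11a2 was 8983. Which cells the RNA of these 2 genes came from was not tested.

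Among the same 16 genes 7 were highest in adult 2, again without a count over all genes. Chad, a leucine-rich matrix protein of cartilage, was 2028 there and 50.5 to 299 in the other adults (log2 fold change −2.53, SE 0.81, edgeR adjusted p = 0.106). Snorc, a proteoglycan of chondrocytes, was 969.6 there and 1.55 to 63.7 in the other adults (−2.61, SE 1.18, edgeR adjusted p = 0.277). Hapln1, which ties aggrecan to hyaluronan, was 624 there and 0 in adult 3 (−2.38, SE 1.16, edgeR adjusted p = 0.318). Cnmd, Ucma, Epyc and Scrg1, named after their values were seen, were too sparse to test, with 333, 275, 85 and 156 counts in adult 2 and at most 18, 11, 5 and 23 in any other library. Other untested matrix genes were not highest there. Prelp had 4 counts in adult 2, 88 in adult 1 and 174 in adult 4, and Matn4 had 5 in adult 2 and 26 in adult 1. Cilp2 had 0 in all adults and at most 18 in a juvenile. Of the joint surface markers Cilp had no count in any library and Prg4, which makes lubricin, was 167 in adult 2 and 134 to 208 in all adults (log2 fold change −0.43, edgeR adjusted p = 0.639). The third, Clu, was 20.03 to 226 in juveniles and 235.8 to 482 in adults, without overlap (log2 fold change −1.30, edgeR adjusted p = 0.199).

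**Figure D5:**
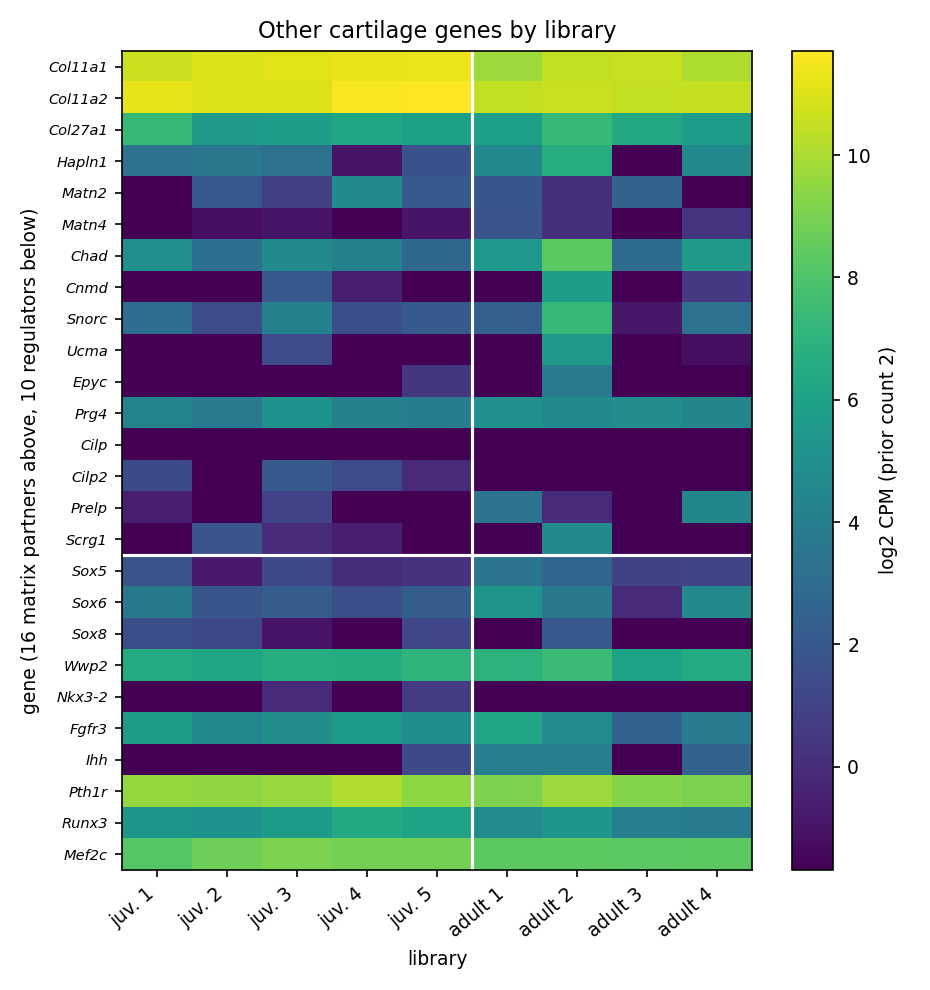
Colours give log2 CPM (prior count 2) of 16 further cartilage matrix genes above the horizontal line and 10 chondrocyte regulators below it, with a column for each library. Col11a1 and Col11a2 are bright in all 9 libraries, while Cnmd, Ucma and Epyc are above the darkest colours mainly in adult 2.

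None of 10 chondrocyte regulators changed among 9 tested (median log2 fold change 0.32). Ihh, the hedgehog ligand of cells about to become hypertrophic, had normalised counts of 0, 0, 0, 0 and 13.3 in juveniles and 102, 99.6, 0 and 35.4 in adults (log2 fold change −4.47, SE 1.69, edgeR adjusted p = 0.177). Sox5 and Sox6, which act with Sox9, had log2 fold changes of −1.83 (SE 0.94, edgeR adjusted p = 0.349) and −1.78 (SE 0.86, edgeR adjusted p = 0.314). Adult 1 and not adult 2 was the highest library for Ihh, Sox5 and Sox6. Panx3, a channel of hypertrophic chondrocytes and osteoblasts, was 1352 to 2723 in juveniles and 332 to 1220.1 in adults, and is named after its values were seen (1.30, SE 0.35, edgeR adjusted p = 0.0603). Its ranges did not overlap, but the share of all genes tested that were so with juveniles higher was not counted.

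Of 12 genes for making chondroitin sulphate, the sugar chain of aggrecan, 2 rose in juveniles and none in adults (median log2 fold change 0.27). Chst11, a chondroitin sulfotransferase, was 716 ± 217 (SD, n = 5) in juveniles and 262 ± 41.7 (SD, n = 4) in adults (log2 fold change 1.45, SE 0.27, edgeR adjusted p = 0.0121). Ugdh, which makes UDP-glucuronic acid, was 1080.0 ± 236 and 557 ± 156 (0.96, SE 0.23, edgeR adjusted p = 0.0391). Chsy3, a chondroitin synthase, had a log2 fold change of −0.99 (SE 1.29, edgeR adjusted p = 0.785). Of 7 genes for degrading cartilage none changed (median 0.13). The largest log2 fold changes there were 1.89 for Adamts4 (edgeR adjusted p = 0.0963) and 1.15 for Adamts1 (edgeR adjusted p = 0.106), both proteases that can cut aggrecan, and 0.47 for the membrane protease Mmp14 (edgeR adjusted p = 0.302). Mmp13, a collagenase of hypertrophic cartilage and bone, was 23989 ± 6600 (SD, n = 5) and 22203 ± 3384 (SD, n = 4), with a log2 fold change of 0.11 (edgeR adjusted p = 0.852).

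Adult 2 was the adult library with the most counts on the 10 genes and with the least of several marrow marker lists. Its 6 neutrophil markers summed to 508 normalised counts against 19884 or more in the other adults and 31.9 to 371 in juveniles. The 5 erythroid markers summed to 20499 against 37886 or more in other adults and 1940 to 12715 in juveniles, and the 3 markers of adipogenic stroma to 1454 against 4431 or more and 1206 to 1793. The osteoblast sum of adult 2, 305750, was close to that of adult 3, 304911, which held the lowest cartilage share of the adults. The part of these cells in the Col2a1 and Comp results was not tested, and counts on the 10 genes per 1000 osteoblast marker counts were 3.20 to 11.3 in juveniles and 20.6, 103, 12.3 and 22.0 in adults 1 to 4.

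The genes whose log2 CPM over the 9 libraries was most like that of Col2a1 among 12428 genes were Cntln, Paics, Gpr83, Tbcc and Uchl3 (Pearson r 0.927 to 0.950, and 0.893 to 0.939 over 8 libraries without adult 2). Those most like Col10a1 were Pigs, Ier5l, Gm20412, Smad4 and Ino80c (0.963 to 0.985, and 0.966 to 0.982 without adult 2). The libraries of an age share their level in many genes, and none of these 10 is in the cartilage lists.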

How the data were processed

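RNA from microdissected capillaries was reverse transcribed with SMART-Seq v4, made into libraries with Nextera XT and sequenced as read pairs. Per the labels, the authors mapped reads to mm10 with TopHat2 and Bowtie2 and counted them with featureCounts, and they deposited whole-number counts per gene without normalisation. The strand setting and annotation release are not given in the sources used here, and the data cannot show which reads came from shared exons. All 9 libraries were used, in the groups of their titles, and total counts were 4856833 to 8077362. No pair of libraries was a copy (36 pairs).

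Symbols, positions and the length of the longest basic protein-coding transcript were taken from GENCODE M21 (GRCm38), in which 37693 of 39179 identifiers had an entry. Ages were compared over all genes with edgeR 4.0.16 in R 4.3.3 (filterByExpr defaults, TMM, quasi-likelihood F test without covariates, Benjamini-Hochberg over 13418 genes, called at an adjusted p under 0.05), tested on simulated data. Single genes were also compared by two-sided exact permutation of mean log2 CPM (prior count 2, scipy 1.17.1), and shares had exact Clopper-Pearson intervals at 95%. The 10 genes and the further lists were chosen with earlier results of these data known. All 10 are named, and of each further list the genes called and the 3 tested genes with the largest log2 fold change. The 5 genes most like Col2a1 and like Col10a1 are named as well. Mmp13, Prg4, Cilp, Cilp2, Cnmd, Ucma, Epyc, Scrg1, Prelp, Matn4 and markers were added to these. Genes with a mean normalised count under 20 were left out of the search for like patterns. DESeq2 1.42.0, limma 3.58.1 voom with quality weights, other filters and scalings, and leaving out libraries were tried as alternatives. Replicate numbers of the ages were not treated as pairs, since no same-numbered pair correlated above 0.1 (−0.0318 to 0.0303). A correlation over all genes cannot exclude a pairing that acts on few of them.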

Additional observations from a re-analysis of the deposited data

Results flagged for a closer look

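In groups of 4 or 5 libraries, a library was set aside for a closer look where its gap to the nearest other, divided by the range of its age, passed Dixon's 95% critical value. This happened in 10 of 21 groups of cartilage values. Dixon's value gives 1 in 20 (about 1.05 groups) only for normally spread values. Counts with many zeros or a long upper tail need not have that spread, so 10 cannot be set against 1.05. The genes share their libraries, and the summed share repeats them, so the groups are not independent either.

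Adult 2 was such a library for Col2a1, at a normalised count of 19566 against 3316 to 5440.4 in the other adults, for Col9a2 at 901 against 7.77 to 84.9, and for Col9a3 at 1336 against 0 to 78.4. It was so too for Comp at 3037 against 37.0 to 353, for Matn1 at 55.6 against 0 to 5.80 and for Matn3 at 453 against 0 to 58.8. The 10 genes together took 0.515% of its counts, against 0.0621% to 0.113% in the other adults. Without it Col2a1 passed edgeR's test and Comp did not.

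Among juveniles, Col10a1 was 4186 in juvenile 3 against 1223 to 1324 in the others, and the share of the 10 genes there was 0.0990% against 0.0336% to 0.0519%. Matn3 was 37.1 in juvenile 2 and 0 in the other 4 juveniles. No test between groups of libraries was attached to these values, and their causes were not tested.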

How the results depend on the processing

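Of 138 values of the tested genes under alternatives, 118 kept their direction and side of the threshold, 10 lost the call and 10 reversed. Only Col2a1 and Comp had a call to lose. The 118 include genes never called, even where the size fell, as for Col9a2 from −2.86 to −0.38 without adult 2. Genes called higher in adults numbered 2, and 1 with voom, 1 with a replicate block, 0 without juveniles 4 and 5, and 1 to 2 when 1 library was left out. With at least 10 counts in every library the number was 1, and there Comp was removed by the filter and not tested. Over all genes 520 were called, against 1492 with DESeq2, 89 with the replicate block, 1378 scaled by osteoblast markers, 73 without juveniles 4 and 5, and 262 to 651 when 1 library was left out. Osteoblast scaling moved the median of all genes to −0.51 and gave 115 higher in juveniles and 1263 in adults, against 267 and 253. Log2 fold changes reversed for Acan (1.55 with voom, 0.22 with the block, −1.39 to 0.51 with 1 library left out), Col9a3 (1.21, 0.093 and −2.73 to 1.46), Col10a1 (−0.26 with osteoblast scaling, −0.15 to 2.24 with 1 library left out) and Sox9 (0.082 with voom). The log2 share of the 10 genes, adult minus juvenile, was 1.42, and −0.557 without Col2a1. The causes were not tested. Col2a1 kept its call in 9 of 9 fits without 1 library (edgeR adjusted p 0.00602 to 0.0377) and Comp in 3 of 9 (0.0202 to 0.145). The block, of replicate numbers that are not known to pair the libraries, gave −2.09 for Col2a1, which lost its call (edgeR adjusted p = 0.0708). Matn1 and Matn3, at 0 in 7 and 6 libraries, were left out of the main edgeR fit by its filter. With no filter on low counts their log2 fold changes were −6.98 and −4.04, and neither passed (edgeR adjusted p = 0.168 and 0.264). A count of 0 allows up to 0.618 CPM at these depths.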
